A study of Rattus norvegicus with 8 samples.

Results

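The genes described here are the inhibitors of cyclin-dependent kinases (Cdkn1a, Cdkn1b, Cdkn1c, Cdkn2a, Cdkn2b, Cdkn2c and Cdkn2d), the secreted factor Gdf15 and the p53 regulator Mdm2, in the spinal cord of stressed and control rats. They were taken as every non-control probe whose gene column held one of these 9 names, out of 26514 names on the array, and all 9 were present, with 13 probes and 40 spots per array. The set was chosen by earlier results of the comparison of stressed with control rats for Cdkn2b and Gdf15, so their differences between the groups are given as values and counts, with no p-value, and a call of one of them says only that its probe passed the threshold of the fit over all probes. All animals were adult male Wistar rats aged 12 weeks. The 4 stressed rats were placed on a platform surrounded by water for 1 h per session on 10 days (water avoidance stress), and the 4 control rats were handled. Tissue was taken 24 h after the last stressor from the whole lumbar L6S1 segments after removal of the meninges, and the RNA of each rat was hybridized to its own 1-colour Agilent array.

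A cell divides when cyclins switch on cyclin-dependent kinases, which phosphorylate the retinoblastoma protein and so release the E2F factors that drive the genes of DNA replication. The CIP/KIP inhibitors p21 (Cdkn1a), p27 (Cdkn1b) and p57 (Cdkn1c) bind complexes of cyclin and kinase broadly, whereas the INK4 inhibitors p16 (Cdkn2a), p15 (Cdkn2b), p18 (Cdkn2c) and p19 (Cdkn2d) bind Cdk4 and Cdk6 and keep them from D-type cyclins. The tumour suppressor p53 induces p21 and also Mdm2, the ubiquitin ligase that marks p53 for destruction, and Gdf15, a distant member of the TGF-beta family released by stressed cells, is induced by p53 and by the integrated stress response and acts through the receptor Gfral with Ret. Most neurons of the adult cord no longer divide, while glia and vascular cells may still do so.

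Signals are given as log2 of the processed signal of a probe minus the 75th percentile of the signal on its array, so 0 is the level of that percentile. Of 30367 probes, the 23677 that stood well above background in 4 or more rats, counted over both groups, were tested, and a probe was called at a false discovery rate (FDR) below 0.1 in a limma fit over all of these. The array of control replicate 2 stood apart from the other controls. On the first principal component of the 8 arrays, which held 54.1% of the variance, it lay at 46.1, beside stressed rats at 8.23 to 34.5 and away from the other control rats at -56.3 to -39.4. The same order was seen in the median difference between 5′ and 3′ probes of 1887 transcripts, called 5′ to 3′ coverage below. It was 0.22 on this array, 0.09 to 0.17 on the stressed arrays and -0.30 to -0.18 on the other control arrays. What shifted it was not tested. All 8 arrays were on 1 slide. Row 1 held the stressed and row 2 the control rats, so that row and group cannot be told apart. The tissue was bulk cord, in which fewer cells of a type and less RNA per cell cannot be told apart.

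Probes are shown for 4 genes on which the results turn, as the sequence printed on the array from 5′ to 3′ in lower case. Those of Cdkn2b and Gdf15 are shown because their signal lay near the background, that of Cdkn2c because it was the only called probe, and that of Mdm2 because it lies far 5′ of the other probe of its gene. On the rn4 assembly they lie at chr5:108941425-108941484 on the minus strand (Cdkn2b, from base 447 of its transcript), chr5:131013102-131013161 on the minus strand (Cdkn2c, base 795), chr16:19313390-19313449 on the plus strand (Gdf15, base 836) and chr7:57005501-57005835 on the minus strand (Mdm2, base 570). The Mdm2 probe covers 335 bases of the genome, more than its own length of 60, so it is split on the genome.
Cdkn2b: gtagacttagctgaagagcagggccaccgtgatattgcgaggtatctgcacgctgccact
Cdkn2c: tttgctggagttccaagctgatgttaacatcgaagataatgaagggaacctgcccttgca
Gdf15: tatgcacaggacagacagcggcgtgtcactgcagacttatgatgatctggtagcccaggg
Mdm2: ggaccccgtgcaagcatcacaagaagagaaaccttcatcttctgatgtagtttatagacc

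Of the 9 genes, 8 had a tested probe, and 11 of their 13 probes were tested. Cdkn2c was the 1 of 8 genes called, higher in stressed rats, where 3.74% of all tested probes were called. Without regard to the fit, 1 of the 11 tested probes was higher in all 4 stressed rats than in all 4 control rats (Cdkn2c), where 6.65% of all tested probes were, and 1 was lower in the same sense (the probe of Cdkn2b at base 1446), where 5.44% were. In the other 9 the groups overlapped. With control replicate 2 left out, 4 of 8 genes were called (Cdkn1a, Cdkn1b and Cdkn2c higher, Cdkn2b lower) against 42.4% of all tested probes, and 4 of 11 probes were higher and 2 lower without overlap against 29.8% and 14.1% of all tested probes. Since this contrast chose the set, nothing is read from these counts. The median log2 difference, stressed minus control, was 0.21 over the 11 probes and 0.06 over all tested probes.

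**Figure D1:**
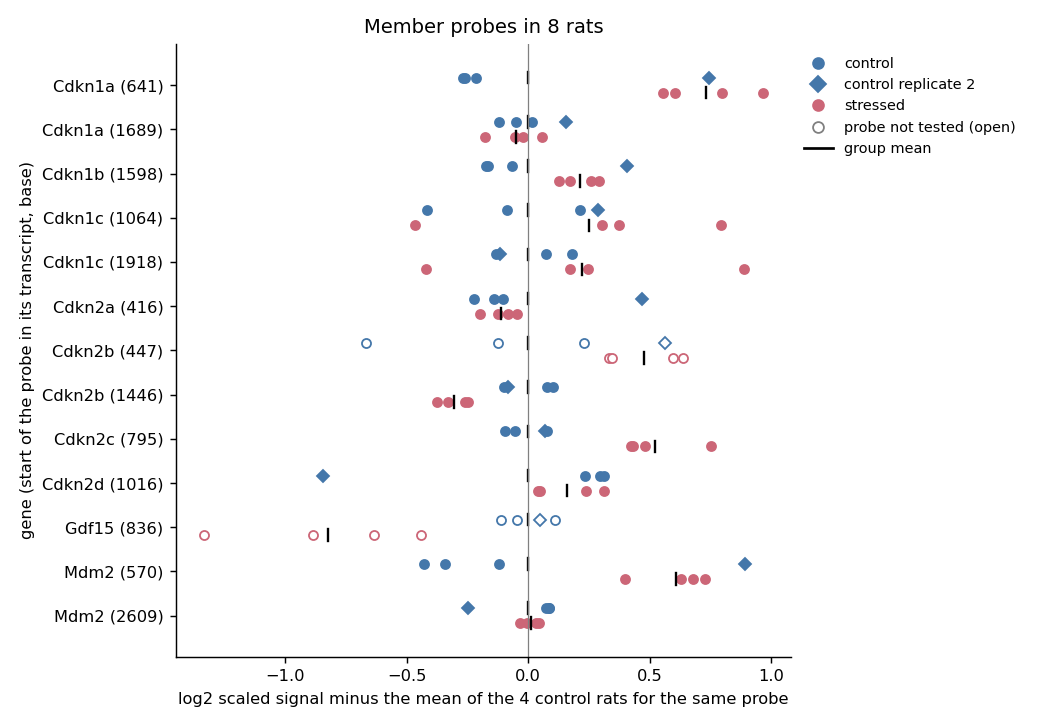
Log2 scaled signal of each of the 13 probes in every rat, as the difference from the mean of the 4 control rats for the same probe; filled points are tested probes, open points probes that were not tested, diamonds control replicate 2 and black ticks group means. The stressed rats lie to the right of all control rats for Cdkn2c and to the left for Gdf15 and the Cdkn2b probe at base 1446, and control replicate 2 lies with or beyond the stressed rats for Cdkn1a (641), Cdkn1b and Mdm2 (570).

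Among the CIP/KIP inhibitors, Cdkn1a (chromosome 20) was read by 2 probes that did not behave alike. At the probe starting at base 641, the log2 signal in control rats 1 to 4 was 3.50, 4.46, 3.44 and 3.45, and in stressed rats 1 to 4 it was 4.68, 4.32, 4.51 and 4.27. Control replicates 1, 3 and 4 lay close together and below every stressed rat, while control replicate 2 lay among the stressed rats, so the groups overlapped. The mean was 3.71 ± 0.50 (SD, n = 4) in control and 4.44 ± 0.19 (SD, n = 4) in stressed rats, a difference of 0.73 with a standard error (SE) of 0.24, or 1.66-fold. At the probe starting at base 1689 the values in control rats were -0.77, -0.49, -0.63 and -0.70, and in stressed rats -0.70, -0.67, -0.59 and -0.83. The groups overlapped throughout, with a difference of -0.05 (SE 0.09). In the signal of the 5′ probe the difference was 0.98 without control replicate 2. It was 0.16 with the 5′ to 3′ measure of the arrays as a covariate. That measure parted the groups except for control replicate 2, so the covariate estimate rests largely on that array, here and for the genes below.

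Cdkn1b, whose protein p27 is held down by the ubiquitin ligase subunit Skp2 and holds cells in quiescence, was read by 1 probe spotted 10 times on each array (chr4:171846350-171846409). Its log2 signal in control rats was -0.84, -0.27, -0.85 and -0.75, and in stressed rats -0.42, -0.51, -0.39 and -0.55. Control replicate 2 was the highest of the 8 rats and the other control rats were the 3 lowest. The difference was 0.21 (SE 0.14), 0.35 without control replicate 2 and -0.11 with the covariate for 5′ to 3′ coverage.

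Cdkn1c, an imprinted gene whose product p57 restrains growth, had 2 tested probes on chromosome 1, at bases 1064 and 1918. At base 1918 the log2 signal was 1.07, 0.88, 0.87 and 1.18 in control rats and 1.17, 1.24, 1.89 and 0.58 in stressed rats. At base 1064 it was -1.38, -1.0, -1.71 and -1.08 in control rats and -0.92, -0.99, -0.50 and -1.76 in stressed rats. At both probes stressed replicate 3 was the highest of the 8 rats and stressed replicate 4 the lowest, so the spread in the stressed rats (SD 0.54 and 0.53) exceeded that in the control rats (SD 0.15 and 0.32). The differences were 0.22 (SE 0.25) and 0.25 (SE 0.27). Without stressed replicate 3 they were -0.0010 and 0.07, and without stressed replicate 4 they were 0.43 and 0.49.

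Among the INK4 inhibitors, Cdkn2a and Cdkn2b are neighbours on chromosome 5, with Mtap beyond Cdkn2a and a predicted gene (LOC134479006) between them in RefSeq GRCr8. Cdkn2a encodes p16 and, in another reading frame, the p53 activator ARF, and the probe at chr5:108910777-108910836 was paired in the files with 2 transcripts. Its log2 signal was -4.47, -3.78, -4.35 and -4.39 in control rats and -4.30, -4.33, -4.37 and -4.45 in stressed rats. Control replicate 2 was the highest and the other 7 rats lay within a narrow band. The difference was -0.11 (SE 0.15), 0.04 without control replicate 2 and -0.47 with the covariate for 5′ to 3′ coverage.

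Cdkn2b had 1 probe clearly above background and 1 near it. The probe starting at base 1446 (chr5:108940426-108940485) was spotted 10 times per array, and all 10 spots were well above background in all 8 rats. Its log2 signal was -5.00, -5.18, -5.02 and -5.20 in control rats and -5.43, -5.48, -5.35 and -5.36 in stressed rats. Each stressed rat was lower than each control rat, control replicate 2 included, with means of -5.10 ± 0.10 (SD, n = 4) and -5.40 ± 0.06 (SD, n = 4), a difference of -0.30 (SE 0.08), or 1.23-fold higher in control rats. It was not called at an FDR below 0.1 over all probes. On the linear scale the spots read 104, 88.2, 106.6 and 97.2 intensity units in control rats and 77.9, 83.1, 86.2 and 87.5 in stressed rats before any background was taken off. The groups were thus already apart in the unscaled mean signal, with control replicate 2 just above the highest stressed rat. These linear means keep outlier spots, 3 of 10 in control replicate 2 and 1 of 10 in each of stressed replicates 1 and 2. The 75th percentile by which the arrays were scaled was 1841 to 2335 in control and 1751 to 1945 in stressed rats, and with scaling but no background correction the difference was -0.05 and the groups overlapped.

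The other probe of Cdkn2b, at base 447, was well above background in 1 control rat and 2 stressed rats, each at 1 of 2 spots, and was not tested. Its log2 signal was -7.18, -6.85, -8.08 and -7.54 in control rats and -6.82, -7.08, -7.07 and -6.78 in stressed rats, and the groups overlapped. The mean was 0.48 higher in stressed rats, opposite in sign to the probe at base 1446. The local background beside its 2 spots was 29.8, 29.0, 28.0 and 29.0 in control rats and 33.0, 41.0, 43.5 and 74.0 in stressed rats. In stressed replicate 4 the background beside the spots (74.0) exceeded the mean signal of the spots themselves (68.7), and with the local background subtracted the difference was -0.29.

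Cdkn2c, encoding p18, was read by 1 probe with 2 spots, well above background in all 8 rats. Its log2 signal was -5.21, -5.04, -5.16 and -5.03 in control rats and -4.69, -4.63, -4.36 and -4.68 in stressed rats. Every stressed rat lay above every control rat, and control replicate 2 lay with the other control rats. The means were -5.11 ± 0.09 (SD, n = 4) and -4.59 ± 0.16 (SD, n = 4), a difference of 0.52 (SE 0.10), or 1.44-fold. With any single array other than control replicate 2 left out, the difference was 0.44 to 0.55 and the probe was no longer called. The unscaled mean signal was 89.9, 85.9, 93.7 and 97.4 in control rats and 108, 118, 129 and 121 in stressed rats, again without overlap. The local background beside the spots was also higher in stressed rats, at 37.3 ± 1.14 against 31.2 ± 1.76 (SD, n = 4), which is 6.06 of the 27.4 units by which the mean signal differed. The background that the scanner software took off was 34.8 ± 1.74 in control and 47.9 ± 3.07 in stressed rats, a difference of 13.04 units without overlap. The processed signal that remained, before scaling, was 56.1 to 71.4 in control and 68.0 to 94.0 in stressed rats and overlapped.

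Cdkn2d, encoding p19, was read by a single spot whose probe the files do not place on the genome. Its log2 signal was 0.57, -0.58, 0.56 and 0.50 in control rats and 0.31, 0.50, 0.31 and 0.57 in stressed rats. Control replicate 2 was the lowest by more than the whole range of the other 7 rats. The difference was 0.16 (SE 0.26), -0.12 without that array and 0.80 with the covariate for 5′ to 3′ coverage.

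Gdf15 was close to the limit of the array. Its probe, with 2 spots, was well above background in control replicates 1, 3 and 4 and in none of the 4 stressed rats, so it was not tested. This rested on 1 of the 2 spots in control replicates 1 and 3 and on 2 spots in control replicate 4. The log2 signal was -7.15, -7.06, -7.22 and -6.99 in control rats and -7.55, -8.44, -7.99 and -7.74 in stressed rats, and the highest stressed rat was lower than the lowest control rat. Each stressed array was also set to its lowest signal well above background, or to the probe's own signal where that was higher. The signal was then 1.66-fold higher in control rats. This is no lower bound, since stressed replicate 1 was not well above background at -7.55 while the lowest such signal on its array was -7.97. The groups lay apart, with stressed rats lower, only in signals from which the background of the scanner software had been subtracted, as the next values show.

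The spots of Gdf15 were themselves brighter in the stressed rats. The mean signal before any subtraction was 51.7, 49.1, 50.4 and 51.0 in control rats and 55.8, 54.1, 52.2 and 57.4 in stressed rats, with no overlap and the stressed rats higher. The background that the software took off was 34.5 ± 1.70 (SD, n = 4) in control and 46.8 ± 1.72 (SD, n = 4) in stressed rats, and the processed signal that remained was 15.9 ± 1.89 and 8.20 ± 2.11. More was thus taken from the stressed arrays than the 4.31 units by which their spots were brighter. The background measured beside the same spots was 32.1 ± 1.03 and 37.9 ± 1.11, and after it was subtracted 18.4 ± 0.43 and 17.0 ± 2.85 units remained, with overlapping groups. The mean left after local subtraction was thus also lower in stressed rats before scaling. On the log2 scale, with the arrays scaled, the difference was -0.82 in the processed signal, 0.08 with the local background subtracted and 0.31 with no correction.

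**Figure D2:**
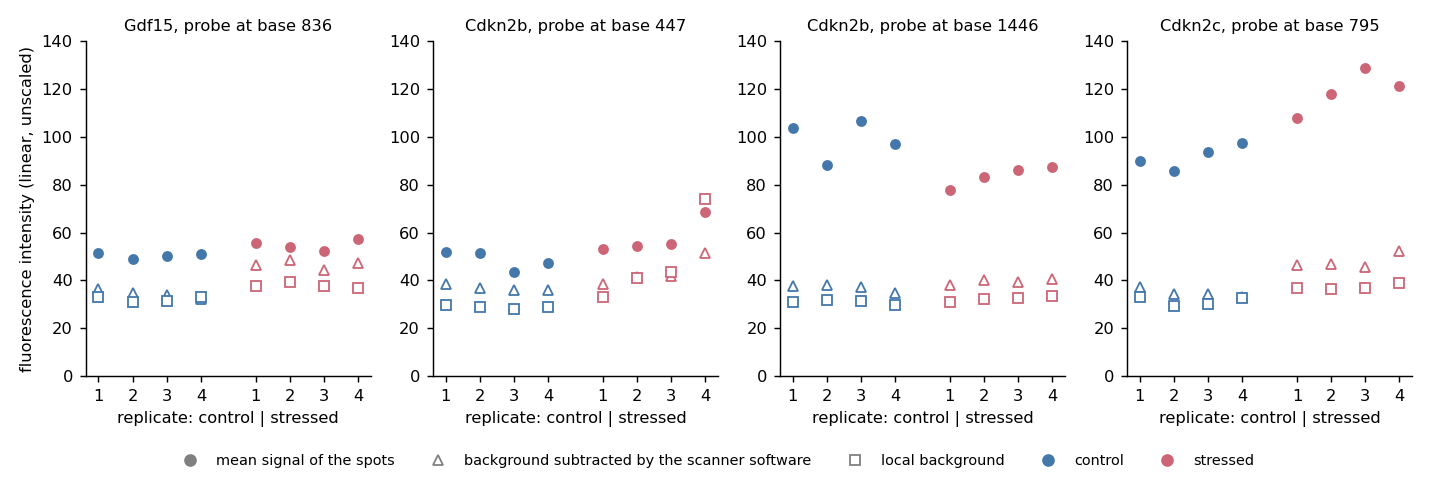
Mean signal of the spots (filled circles), background subtracted by the scanner software (triangles) and local background (squares) for Gdf15, Cdkn2b at bases 447 and 1446, and Cdkn2c in each of 4 control and 4 stressed rats, in linear unscaled fluorescence intensity. For Gdf15 the mean signal and both backgrounds are higher in every stressed rat, for Cdkn2b at base 447 the local background of stressed replicate 4 (74.0) exceeds the signal, and for Cdkn2c the signal stands well clear of both backgrounds.

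Over the spots of all 9 genes, the median local background was 31.0, 32.0, 31.0 and 30.8 in control rats and 32.0, 33.8, 34.5 and 35.0 in stressed rats. Only stressed replicate 1 and control replicate 2 met, at 32.0. The difference between the group means was 2.62 units (exact two-sided permutation test over all 70 choices of 4 arrays, p = 0.0571). Over all spots of the array the mean local background was 2.67 units higher in stressed rats, with no overlap (exact two-sided permutation test over all 70 choices of 4 arrays, p = 0.0286, the smallest possible), so the shift was not limited to these genes. Its part in the differences of dim probes was not tested beyond the corrections given here.

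The choice of correction moved the dim probes and left the bright ones nearly in place. For Cdkn1a at base 641 the difference was 0.73 in the processed signal and 0.77 to 0.79 under the 4 other corrections (local subtraction, a normexp model with an offset of 0 or of 50, and none). For Cdkn2b at base 1446 it was -0.30, -0.19 with local subtraction, -0.16 and -0.05 with normexp at offsets of 0 and 50, and -0.05 with no correction. The sign stayed negative, and the groups lay apart in the processed signal and with local subtraction and overlapped in the other 3. For Cdkn2c it was 0.52, 0.65, 0.42, 0.32 and 0.57 in the same order, positive throughout, but the groups overlapped under both normexp settings, as they did under quantile normalization of the processed signal (0.33). For Mdm2 at base 570 it was 0.61, 0.60, 0.36, 0.30 and 0.50. The sign turned for Gdf15 and for the dim probe of Cdkn2b, which was 0.48, -0.29, -0.46, -0.07 and 0.44 in the same order. Under these corrections Cdkn2a (-0.12 to 0.01) and Mdm2 at base 2609 stayed near 0. Under quantile normalization of the processed signal Cdkn2a was -0.30, with stressed rats lower without overlap, and without scaling it was -0.31.

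**Figure D3:**
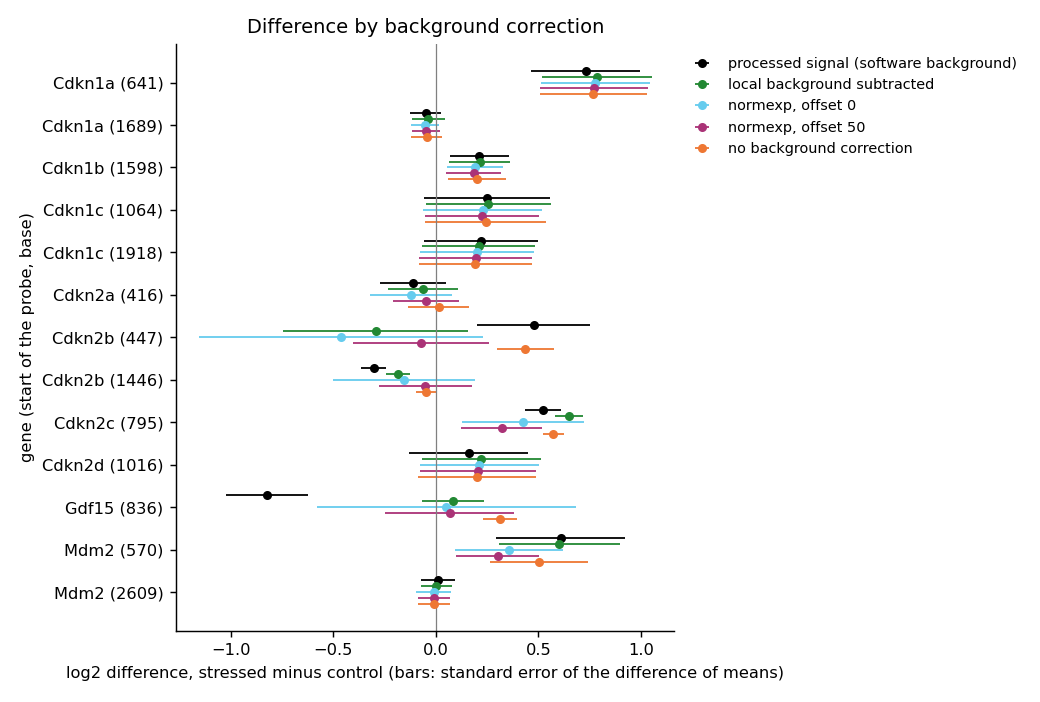
Log2 difference, stressed minus control, of each probe under 5 background corrections, with bars of the standard error of the difference of means (n = 4 and 4 rats). The 5 points nearly coincide for Cdkn1a, Cdkn1b, Cdkn1c, Cdkn2d and Mdm2 (2609), stay to the right of 0 for Cdkn2c, and fall on both sides of 0 for Gdf15, from -0.82 to 0.31, and for Cdkn2b at base 447.

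Mdm2, on chromosome 7, was like Cdkn1a at its 5′ probe but not at its 3′ probe. At the probe at base 570 the log2 signal was -5.22, -3.90, -5.13 and -4.91 in control rats and -4.11, -4.16, -4.06 and -4.39 in stressed rats. Control replicate 2 was the highest of the 8 and the other control rats were the 3 lowest. The difference was 0.61 (SE 0.28), 0.91 without control replicate 2 and -0.10 with the covariate for 5′ to 3′ coverage. At the probe at base 2609 the values were -0.61, -0.94, -0.61 and -0.62 in control rats and -0.70, -0.65, -0.73 and -0.66 in stressed rats. Here control replicate 2 was the lowest of the 8, whereas it was the highest for Cdkn1a at base 1689. The difference of Mdm2 at base 2609 was 0.01 (SE 0.09).

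The gap between the 5′ and the 3′ probe of a gene, in log2 and relative to its mean over the 8 rats, put these values side by side. For Cdkn1a it was -0.48, 0.20, -0.67 and -0.60 in control rats and 0.63, 0.24, 0.35 and 0.34 in stressed rats. For Mdm2 it was -0.82, 0.84, -0.73 and -0.49 in control rats and 0.38, 0.28, 0.46 and 0.07 in stressed rats. In both genes control replicate 2 was positive like the stressed rats and the other control rats were negative, the same order as in the median over 1887 transcripts. For Cdkn1c the gap was -0.17, 0.39, -0.30 and 0.02 in control rats and 0.19, 0.04, -0.11 and -0.06 in stressed rats, with mixed signs in each group. The part of RNA coverage in the differences of Cdkn1a and Mdm2 was not tested beyond the covariate fit. In that fit coverage and group were told apart mainly by control replicate 2.

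**Figure D4:**
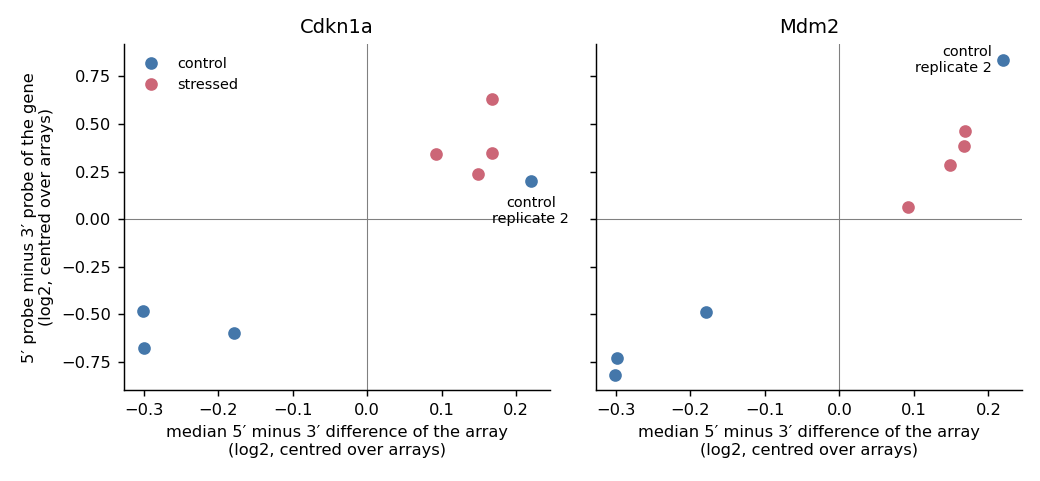
Difference between the 5′ and the 3′ probe of Cdkn1a (left) and Mdm2 (right) in each rat, on the y axis, against the median 5′ minus 3′ difference over 1887 transcripts of the same array, on the x axis, both in log2 and centred over the 8 arrays. Control replicate 2 lies in the upper right with the 4 stressed rats, and the other 3 control rats lie in the lower left.

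Genes that act with the inhibitors were examined in 5 lists drawn from textbook knowledge. Of 27 tested genes among cyclins, kinases, retinoblastoma proteins and E2F factors, none was called by limma, where 3.74% of all tested probes were, and 4 had an unadjusted p below 0.05, where 20.3% of all tested probes had. The targets of the INK4 proteins had log2 differences of 0.02 (SE 0.09, adjusted p = 0.916) for Cdk4 and -0.09 (SE 0.16, adjusted p = 0.769) for Cdk6. Ccnd1, a D-type cyclin that activates them, read -1.64, -0.90, -1.66 and -1.78 in control rats and -1.08, -1.06, -0.84 and -1.29 in stressed rats. Its difference was 0.43 (SE 0.20, adjusted p = 0.275), with control replicate 2 among the stressed rats. The list's median difference was -0.02, beside 0.06 over all tested probes.

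Of 22 tested genes of S and M phase, Tk1, the thymidine kinase of replicating cells, was the 1 called. It read -2.72, -2.64, -2.61 and -2.60 in control rats and -2.87, -3.13, -2.91 and -2.99 in stressed rats. It fell by 0.33 (SE 0.08, adjusted p = 0.0936 by limma), with no overlap between the groups. The list's median difference was -0.05, and 3 of its genes had an unadjusted p below 0.05, beside 20.3% of all tested probes.

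Of 22 tested genes of the p53 pathway, Sesn1, a p53 target that restrains mTOR signalling, was the 1 called. It read -3.37, -3.06, -3.39 and -3.36 in control rats and -2.75, -2.49, -2.85 and -2.67 in stressed rats. It rose by 0.60 (SE 0.11, adjusted p = 0.0603 by limma), with all stressed rats above all control rats. The list's median difference was 0.03, and 6 of its genes had an unadjusted p below 0.05, where 20.3% of all tested probes had.

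Of 16 tested genes of the integrated stress response and the Gdf15 receptor, none was called by limma, 4 had an unadjusted p below 0.05, beside 20.3% of all tested probes, and the median difference was -0.08. Of 23 tested genes that regulate the INK4 locus or p27, 3 were called, where 3.74% of all tested probes were. Smad4, the shared partner of TGF-beta receptor signals, rose by 0.63 (SE 0.13, adjusted p = 0.0765), and Bmi1, a polycomb protein that silences the INK4 locus, rose by 0.42 (SE 0.10, adjusted p = 0.0908). Tgfb1, a ligand that induces p15, fell by 0.49 (SE 0.11, adjusted p = 0.0859). In all 3, named because they were called, the groups did not overlap. That held for 7 of the 23 genes, where 5.44% of all tested probes were lower and 6.65% higher without overlap. Mtap, beside Cdkn2a, had a difference of 0.59 (SE 0.29, adjusted p = 0.287). The list's median difference was 0.03, and 8 of its genes had an unadjusted p below 0.05, beside 20.3% over the array. In the 5 lists, calls without control replicate 2 numbered 8, 7, 10, 7 and 12, where 42.4% of all tested probes were called. Without any other single array none was called in the lists, and 0 to 72 of all 23677 tested probes were.

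**Figure D5:**
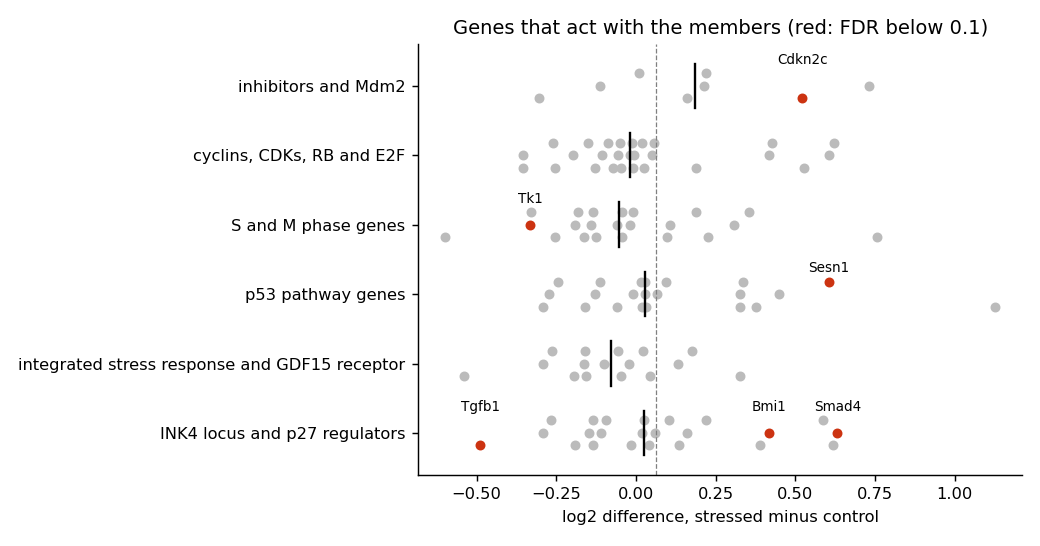
Log2 difference, stressed minus control, of each tested gene (its brightest probe) in the inhibitors with Mdm2 and in 5 lists of genes that act with them; red points with names are genes called at an FDR below 0.1, black ticks are list medians and the dashed line is the median of all tested probes (0.06). In the 5 lists 5 genes were called, Tk1 and Tgfb1 to the left of 0 and Sesn1, Bmi1 and Smad4 to the right.

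The genes whose log2 signal followed that of Cdkn2b (base 1446) most closely over the 8 rats were Mfap2 (Pearson r = 0.982), Slc12a7 (r = 0.975) and Stat3 (r = 0.973), and 113 of 13306 gene symbols had r above 0.9. For Cdkn1a (base 641) they were Gabra2 (r = 0.996), Cdgap (r = 0.995) and Sh3bgrl (r = 0.995), and 1234 of 13306 symbols had r above 0.9. These are descriptions over arrays that share a slide and a scaling. For Cdkn1a they follow the order that set control replicate 2 beside the stressed rats. The values of Cdkn2b, chosen by this contrast, split by group, so its r includes a shared group difference. That difference was -0.52 for Mfap2, -0.39 for Slc12a7 and -0.24 for Stat3.

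Markers of cell types were read beside these genes. The mean log2 level of 5 oligodendrocyte markers was 4.25 to 4.56 in control and 4.38 to 4.79 in stressed rats, and that of 4 neuronal markers 2.22 to 2.32 and 2.28 to 2.52. The 3 motor neuron markers averaged -2.54 to -2.28 and -2.77 to -2.11. Of 45 tested markers 2 were called, where 3.74% of all tested probes were, Mog of myelin (difference 0.90, SE 0.18, adjusted p = 0.0721 by limma) and Pecam1 of endothelium (0.40, SE 0.09, adjusted p = 0.0930), both higher in stressed rats. Markers of nerve roots and connective tissue varied most between rats. The 4 Schwann cell markers averaged -3.22 to 1.09 in control and -2.86 to 0.13 in stressed rats, and none was called. The 5 markers of meninges and fibroblasts averaged -2.44 to -0.36 in control and -2.56 to -1.01 in stressed rats, all 5 lower on average and none called. The part of these markers in the values of the inhibitors was not tested.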

How the data were processed

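The spinal cord RNA of 4 control and 4 stressed rats was measured on 1 Agilent array per rat. Per the file headers, the intensity values deposited by the authors came from Feature Extraction 10.7.3.1 (protocol GE1_107_Sep09, build rn4), which took off a detrended background and replaced small values with surrogates. The deposited table of values equals the processed signal to within 0.050. The authors' further steps used dChip.

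Here, outlier spots were set to missing, log2 processed signal minus the 75th percentile of each array was averaged over the spots of a probe, and probes well above background (at least 0.5 of spots) on at least 4 of 8 arrays were fitted with limma 3.58.1 in R 4.3.3, with Benjamini-Hochberg adjustment over all of them. The brightest probe stood for a gene. Linear means of the spots kept the outlier spots. The local background, over the spots of the 9 genes and over all spots, was compared between the groups by an exact permutation test over all 70 choices of 4 arrays. Scripts were tested on simulated data. Members, lists, named genes (all member probes; called list genes, at most 4 a list; Cdk4, Cdk6, Ccnd1, Mtap, and 1 gene not reported here; 3 most similar genes) and alternatives were chosen with earlier results of these data known. Each probe pair was at least 300 bases apart. Precision is limited by the 8 arrays and, for dim probes, by the background. Probe positions and sequences are from the files; exons and UTRs were not analysed here. P values measure the spread between rats of 1 array each.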

Additional observations from a re-analysis of the deposited data

Results flagged for a closer look

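In groups of 4 rats, a value was taken as far from its group when its gap to the nearest other value, divided by the range of the group, exceeded Dixon's critical value for 4 values. Of 48 groups examined, 6 held such a value, where chance gives 2.4 (1 in 20), and all 6 were control replicate 2. The ratio was 0.948 for Cdkn1a at base 641, where this rat was high, 0.8291 for Cdkn2a, where it was high by a margin barely above the limit, 0.932 for Cdkn2d and 0.951 for Mdm2 at base 2609, where it was low in both. Among genes that act with the inhibitors it was 0.902 for Sesn1 and 0.843 for Ccnd1, in both of which it was high. The array of this rat also stood apart from the other control rats over all probes, and the reason was not tested.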

How the results depend on the processing

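The difference of each tested probe was recomputed under 19 alternatives. With the 5′ minus 3′ covariate it was 0.16 for Cdkn1a (base 641), -0.11 for Cdkn1b, -0.47 for Cdkn2a, 0.80 for Cdkn2d, 0.20 for Mdm2 (base 2609) and -0.22 for Cdkn2b (base 1446). The last was -0.051 under normexp with an offset of 50, -0.16 with an offset of 0, -0.19 with local subtraction, -0.048 with none, -0.49 under quantile normalization and -0.50 without scaling, its sign kept in 19 of 19. Cdkn2c was 0.32 under normexp with an offset of 50, 0.33 under quantile normalization and 0.32 without scaling, positive in 19 of 19, and Mdm2 (base 2609) was -0.19 without scaling. Gdf15 was 0.067 and 0.051 under normexp with offsets of 50 and 0, 0.083 with local subtraction and 0.31 with no correction.

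Of 8 member genes 1 was called, and 0 under both normexp corrections, quantile normalization and the replicate block. There were 2 with no background correction or a filter on all 8 arrays. There were 3 with the covariate (Cdkn2a, Cdkn2c and Cdkn2d) and 3 with no filter, where Gdf15 was also fitted. Leaving out 1 array gave 0 to 4 member genes, the 4 without control replicate 2. Without any other array it gave 0, where 0 to 72 of all 23677 tested probes were called. Over all probes 885 of 23677 were called, 2531 with no correction, 2393 with the covariate, 1794 without scaling and 1166 under quantile normalization. That total was 1066 of 23646 with local subtraction, 3010 of 30357 with no filter and 1079 of 22035 with the filter on all 8 arrays. Under normexp it was 215 and 124 with offsets of 50 and 0. These totals stand beside the list counts that follow. The cyclin list (0 called) gave 1 with local subtraction, no correction, no filter or the strict filter, 2 under quantile normalization, 3 without scaling and 4 with the covariate (0 to 8 leaving out 1 array). The S and M phase list (1) gave 0 under normexp, local subtraction and the block, 2 with no correction, quantile normalization or the covariate, and 3 without scaling (0 to 7). The p53 list (1) gave 0 under normexp and the block, 4 with no correction, 2 under quantile normalization, and 3 without scaling, filter or with the covariate (0 to 10). The stress response list (0) gave 2 with no correction or no filter, 3 without scaling and 1 with the covariate (0 to 7). The INK4 and p27 list (3) gave 0 under normexp and the block, 5 with no correction or no filter and 1 under quantile normalization (0 to 12). Each highest count came without control replicate 2. The local background difference was 2.23 to 3.23 leaving out 1 array.

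Over all probes 885 were called, 10038 without control replicate 2 and 0 with the replicate number as a block. Nothing in the labels ties equal numbers together, and their correlations were 0.10, 0.12, -0.09 and 0.31, so the block was not taken as a pairing. The causes of these changes were not tested.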
